A study of Mus musculus with 15 samples.

Results

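The genes described here encode the machinery that moves proteins and lipids between the endoplasmic reticulum (ER) and the Golgi apparatus in both directions. They are 48 named genes of the COPII coat, the COPI coat, the p24 (Tmed) proteins, the cargo receptors and the SNAREs and tethers of this step. They were chosen as a list with earlier results of these data known, and not by a threshold on these data. Of the 48, 47 had a microarray transcript cluster with a single gene symbol, out of 22180 genes measured that way, and Tmed1 was not analysed here. Whole liver RNA came from 15 male mice of the apoE3L.CETP genotype (ApoE*3Leiden.CETP), labelled as 9 to 12 weeks old, whose human transgenes give a more human-like lipoprotein profile. All mice, controls included, carried both transgenes and ate a diet of 60% fat and 0.25% cholesterol for 6 weeks before surgery, were housed singly after it and were killed 20 days later. The 6 RYGB mice had Roux-en-Y gastric bypass, in which food reaches the jejunum directly from a small stomach pouch. The 4 BWm mice had sham surgery and were kept at the body weight of the RYGB mice, and the 5 Sham AL mice had sham surgery and ate ad libitum. Each mouse gave 1 GeneChip Mouse Gene 2.0 ST array, and values are log2 RMA signals (robust multi-array average), on which a difference of 1 is a doubling. A level on this scale depends on a gene's probes, so levels are compared between groups and not between genes.

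Cargo leaves the ER in vesicles whose COPII coat is started by the GTPase SAR1, with an inner layer of SEC23 and SEC24, which binds cargo, and an outer cage of SEC13 and SEC31. COPI, a coat recruited by the GTPase ARF1, carries escaped ER proteins, receptors and SNAREs back from the Golgi. Hepatocytes use this route for albumin, clotting factors and lipoproteins, and genes of the route are known targets of the unfolded protein response.

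The arrays had medians between 3.89 and 4.02, and pairs of arrays correlated across genes with r of 0.967 to 0.991. The hepatocyte markers that define the tissue were at a mean level of 12.05 to 12.10 on RYGB, 12.07 to 12.13 on BWm and 11.97 to 12.13 on Sham AL arrays. Sham AL replicate 4 stood apart, with adrenal cortex markers 5.26 and brown fat markers 3.29 above their mean over all arrays, so results are also given without it. Animal numbers in the labels, whose meaning is not stated, were under 50 for 3 RYGB, 0 BWm and 1 Sham AL mice and above 60 for the rest. The number of arrays limits the precision, with a median SE of a log2 fold change over all genes of 0.135 for RYGB against BWm, 0.127 for RYGB against Sham AL and 0.14 for BWm against Sham AL.

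Most of this machinery was higher in bypass than in weight-matched livers. These groups had a matched body weight but differed in surgery and in how that weight was reached, which the comparison cannot tell apart. Of the 47 genes, 30 were higher in RYGB than in BWm at an adjusted p under 0.05 and 0 were lower (2 lower at an unadjusted p under 0.05, and 25 higher and 0 lower by the methods' analysis of variance after adjustment). Over all 22180 genes tested, 6.36% were called in this comparison, 4.02% higher and 2.34% lower. At an unadjusted p under 0.05, 2359 of all genes were higher and 1714 lower. The median log2 fold change of the 47 was 0.44, against 0.00 over all genes. By role, 7 of 7 COPI coat subunits, 4 of 4 ARF regulators and 5 of 6 SNAREs and tethers were called, against 5 of 13 COPII genes, 4 of 7 p24 genes and 5 of 10 cargo receptors. All 6 RYGB arrays lay above all 4 BWm arrays for 30 of the 47 genes, where 4.71% of all genes did so. The genes were chosen with earlier results of these data known, so these counts describe the list and were not tested. Leaving out BWm replicate 2 brought the 30 to 19, and with only animals numbered above 60 the count was 20, of which 19 were higher; without Sham AL replicate 4 it was 30. The 11 not called with only those animals were Arcn1, Copa, Copb1, Copb2, Copz1, Arfgap2, Gbf1, Kdelr2, Lman1, Surf4 and Bet1. There Copg1 and Cope were the COPI subunits still called, while the 5 COPII genes called higher kept their calls. The order of the roles thus depended on which animals were used.

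Some of the genes were lower in weight-matched than in ad libitum livers, a comparison that asks what weight matching itself changed. In BWm against Sham AL, 10 of the 47 genes fell and 0 rose (4 were higher and 25 lower at an unadjusted p under 0.05, and 4 were lower and 0 higher by the analysis of variance after adjustment), where 2.84% of all genes were called, 1.3% lower and 1.53% higher. The 10 were Sec23b, Sec24c and Sec13 of COPII, Tmed3 and Tmed9 of the p24 proteins, Copg1 of COPI, the ARF regulators Arfgap3 and Gbf1, the SNARE gene Sec22b and the tether gene Uso1. No cargo receptor passed (1 higher and 3 lower of 10 at an unadjusted p under 0.05). Of all 22180 genes, 1660 were higher and 1731 lower at that unadjusted p. The median of the 47 was log2 -0.27, against -0.01 over all genes, and all 4 BWm arrays lay below all 5 Sham AL arrays for 17 genes and above them for 3, against 3.39% and 3.46% of all genes. The count was 6 without Sham AL replicate 2, BWm replicate 2 or BWm replicate 3, 9 without Sham AL replicate 4, and 7 with only animals numbered above 60, where Copg1, Gbf1 and Sec24c were not called. Without Sham AL replicate 4, Copg1 and Tmed3 were not called, so the 9 include a member outside the 10.

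Against ad libitum shams, 2 of the genes were called in bypass livers. In RYGB against Sham AL, which sets bypass together with its weight loss against unrestricted feeding, Arfgap3 and Tmed3 rose and 0 of the 47 fell (17 were higher and 0 lower at an unadjusted p under 0.05), where 1.38% of all genes were called, 0.938% higher and 0.442% lower. Of all 22180 genes, 1700 were higher and 1171 lower at an unadjusted p under 0.05. The analysis of variance called 0 of the 47 after adjustment. The median was log2 0.17 against -0.0029 over all genes, and 41 of the 47 estimates were above 0, as were 49.2% of all genes. This was not particular to the 47. In the lists described below, estimates were above 0 for 25 of 29 ER entry genes and 26 of 30 late Golgi and post-Golgi genes. The same held for 9 of 10 regulators and 40 of 60 other ER-Golgi genes. For 5 of the 47 genes the RYGB arrays were all higher than the Sham AL arrays, where 1.58% of all genes did so. The count of 2 was 0 with RYGB replicate 2 or with Sham AL replicate 5 left out. It was 1 with RYGB replicate 3, 4 or 6, or with Sham AL replicate 1, 2 or 3 left out, and 2 without Sham AL replicate 4. Without RYGB replicate 4 neither Arfgap3 nor Tmed3 was called, and the 1 was another member. The count was 0 with only animals numbered above 60. The 3 comparisons share groups, so they are not independent of each other. By group mean, 38 of the 47 genes were lowest in BWm, 35 were highest in RYGB, and 34 ran in the order RYGB, Sham AL, BWm.

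**Figure D1:**
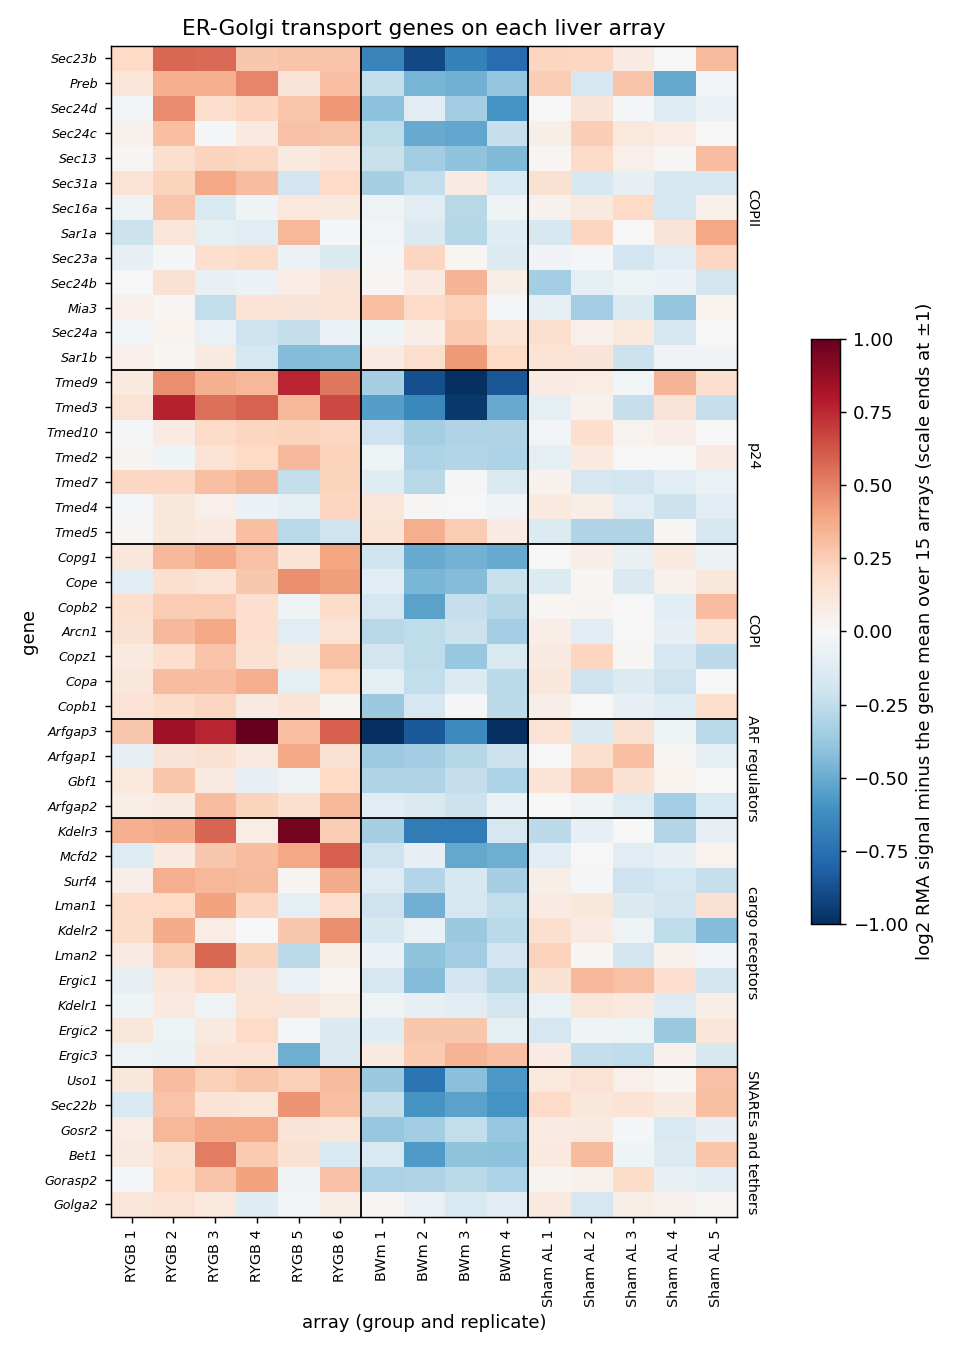
Each row is a gene and each column an array, with RYGB at the left, BWm in the middle and Sham AL at the right; colour is the log2 signal minus the gene's mean over 15 arrays, ending at ±1. BWm columns are blue for most genes in every role. The 8 genes with their highest group mean in BWm are Sec23a, Sec24a, Sec24b, Sar1b, Mia3, Tmed5, Ergic2 and Ergic3.

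The 47 genes were also averaged on each array, relative to each gene's mean over all arrays. That average was 0.06 to 0.23 on RYGB arrays, -0.27 to -0.19 on BWm arrays and -0.08 to 0.03 on Sham AL arrays, and the 3 ranges did not overlap. RYGB replicate 1 was the lowest of its group at 0.057 and RYGB replicate 5 the next at 0.106, while the other 4 lay between 0.188 and 0.227. The same average for COPI was 0.08 to 0.28 on RYGB, -0.34 to -0.2 on BWm and -0.08 to 0.06 on Sham AL arrays. For SNAREs and tethers it was 0.04 to 0.28, -0.43 to -0.24 and -0.03 to 0.11 in the same order of groups, so that RYGB and Sham AL overlapped there and BWm lay below both.

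Promoter sequences of the members are shown because many of the genes were higher together in RYGB than in BWm, and because the unfolded protein response is known to act on genes of this route through short DNA elements. The sequences are RefSeq windows of mouse build GRCm38.p6 from 250 bases before to 50 bases after each gene's annotated start, and 42 of the 47 genes had one (4 of them had 2). The motifs searched on both strands were TGACGTGG (the UPRE, an element bound by ATF6 and XBP1), its inner part GACGTG, the ERSE (CCAAT and CCACG with 9 bases between them), the ERSE-II (ATTGG and CCACG with 1 base between them) and TGACGTCA (the cyclic AMP response element). Every TGACGTGG also counts as a GACGTG. Capitals mark TGACGTGG or its reverse complement in the windows of 60 bases of Sec24d (chr3:123267444-123267503, plus strand), Copb1 (chr7:114254675-114254734, minus strand), Copb2 (chr9:98563698-98563757, plus strand), Gbf1 (chr19:46152520-46152579, plus strand) and Sec23a (chr12:59011978-59012037, minus strand), read 5′ to 3′ on the gene's strand.
Sec24d: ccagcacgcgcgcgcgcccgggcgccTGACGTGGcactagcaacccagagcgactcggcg
Copb1: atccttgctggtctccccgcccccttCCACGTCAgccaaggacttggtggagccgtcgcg
Copb2: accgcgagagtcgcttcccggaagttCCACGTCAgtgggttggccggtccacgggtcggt
Gbf1: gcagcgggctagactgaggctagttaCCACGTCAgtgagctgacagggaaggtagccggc
Sec23a: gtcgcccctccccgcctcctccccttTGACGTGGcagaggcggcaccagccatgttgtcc

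These 5 genes and Kdelr3 were the 6 of 42 (14.3%) with TGACGTGG. It was in 0.865% of the 16990 tested genes with a promoter. Among the 8793 genes with a promoter whose level lay above the median of all genes, the share was 1.07%. Of the 6 members with TGACGTGG, 5 were called higher in RYGB than in BWm and Sec23a was not, where 26 of the 42 were called. The shorter GACGTG was in 16 of 42 (38.1%), against 8.33% of the tested genes with a promoter and 11.0% of the genes above the median level. It was in 12 of the 26 called genes with a promoter and in 4 of the 16 not called. The ERSE and the ERSE-II were in 0 of 42 (0.171% and 0.0530% of the tested genes, 0.205% and 0.091% of the genes above the median level). TGACGTCA was in Cope and Gosr2 (4.76% of the 42, against 2.65% of the tested genes and 3.42% of the genes above the median level). A match describes letters and is not shown to be a site, and its link to the differences between groups was not tested. Another 3 called genes with GACGTG are shown for the strength of their fold changes, namely Uso1 (chr5:92137866-92137925, plus strand), Copg1 (chr6:87887915-87887974, plus strand) and Tmed3 (chr9:89705213-89705272, minus strand), with GACGTG or its reverse complement in capitals.
Uso1: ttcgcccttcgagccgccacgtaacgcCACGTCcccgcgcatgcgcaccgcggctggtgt
Copg1: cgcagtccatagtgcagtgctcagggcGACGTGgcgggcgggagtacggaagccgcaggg
Tmed3: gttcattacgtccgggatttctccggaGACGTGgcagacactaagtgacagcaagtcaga

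The whole promoter of Kdelr3 (chr15:79516158-79516457, plus strand) is given because it holds GACGTG in both orientations, and that of Sec23b (chr2:144555979-144556278, plus strand; the first of its 2) because the gene had the smallest p of all members and no match to any of the 5 motifs in either window. Capitals again mark GACGTG and its reverse complement, and the second of these in Kdelr3 lies within its TGACGTGG match. The promoters of Tmed3 and Sec16a also held GACGTG in both orientations, and the Tmed3 window above shows only its upstream match.
Kdelr3: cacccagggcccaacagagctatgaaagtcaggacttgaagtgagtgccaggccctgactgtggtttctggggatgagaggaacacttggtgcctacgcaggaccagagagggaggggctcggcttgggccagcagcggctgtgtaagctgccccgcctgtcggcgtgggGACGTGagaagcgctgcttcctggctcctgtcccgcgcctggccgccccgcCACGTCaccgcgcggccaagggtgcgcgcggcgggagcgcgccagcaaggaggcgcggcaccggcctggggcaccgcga
Sec23b: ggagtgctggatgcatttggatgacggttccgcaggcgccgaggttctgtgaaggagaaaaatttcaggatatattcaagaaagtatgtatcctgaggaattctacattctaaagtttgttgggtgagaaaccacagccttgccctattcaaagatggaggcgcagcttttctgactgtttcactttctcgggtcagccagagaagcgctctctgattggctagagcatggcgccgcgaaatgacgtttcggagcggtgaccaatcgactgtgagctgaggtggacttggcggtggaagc

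Within the COPII coat, 5 of 13 genes were higher in RYGB than in BWm (6 higher and 1 lower at an unadjusted p under 0.05) and 3 fell in BWm against Sham AL. Between RYGB and Sham AL 0 of 13 passed (4 were higher and 0 lower at an unadjusted p under 0.05). Sec23b encodes 1 of the 2 SEC23 proteins of the inner coat, which speed GTP hydrolysis by SAR1. It measured 6.96 (lowest), 7.04 (median) and 7.33 (highest) on the 6 RYGB arrays, 6.10, 5.86, 6.08 and 5.996 on the 4 BWm arrays, and 6.98, 6.96, 6.84, 6.75 and 7.07 on the 5 Sham AL arrays. All BWm arrays lay below every other array, while RYGB and Sham AL overlapped. Sec23b was 2.16-fold higher in RYGB than in BWm (log2 1.11 ± 0.11 SE, adjusted p = 1.6e-05) and fell in BWm against Sham AL (log2 -0.91 ± 0.11 SE, adjusted p = 0.00066), with log2 0.20 ± 0.10 SE, adjusted p = 0.42 between RYGB and Sham AL.

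Sec24c and Sec24d encode the cargo-binding subunits of one SEC24 subclass. Sec24d measured 8.45 (lowest), 8.72 (median) and 8.94 (highest) on the 6 RYGB arrays, 8.06, 8.36, 8.12 and 7.88 on the 4 BWm arrays, and 8.47, 8.60, 8.46, 8.34 and 8.42 on the 5 Sham AL arrays. RYGB lay above all BWm arrays and overlapped Sham AL, and BWm replicate 2 at 8.36 lay just above the lowest Sham AL array. Its difference between RYGB and BWm was log2 0.63 ± 0.11 SE, adjusted p = 0.0024. Sec24c measured 8.48 (lowest), 8.68 (median) and 8.79 (highest) on the 6 RYGB arrays, 8.23, 7.98, 7.97 and 8.26 on the 4 BWm arrays, and 8.55, 8.74, 8.59, 8.56 and 8.49 on the 5 Sham AL arrays. Here again the BWm arrays were the lowest 4 of 15. Sec24c was higher in RYGB than in BWm (log2 0.55 ± 0.10 SE, adjusted p = 0.0028) and fell in BWm against Sham AL (log2 -0.48 ± 0.11 SE, adjusted p = 0.021), a call that ended with BWm replicate 2 or 3, or with Sham AL replicate 2 left out (highest adjusted p = 0.088, log2 -0.53 to -0.43). Ranges of log2 fold changes given with such calls span all 15 fits that each left out 1 array.

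Sec13, a subunit of the outer cage that also serves in the nuclear pore, measured 7.17 (lowest), 7.31 (median) and 7.39 (highest) on the 6 RYGB arrays, 6.93, 6.81, 6.76 and 6.72 on the 4 BWm arrays, and 7.17, 7.35, 7.21, 7.17 and 7.47 on the 5 Sham AL arrays. BWm again lay below both other groups, which overlapped. Sec13 was higher in RYGB than in BWm (log2 0.49 ± 0.09 SE, adjusted p = 0.0029) and fell in BWm against Sham AL (log2 -0.47 ± 0.10 SE, adjusted p = 0.012). Preb, the mammalian SEC12, loads SAR1 with GTP and was higher in RYGB than in BWm (log2 0.69 ± 0.14 SE, adjusted p = 0.0045). Sec31a, of the outer cage, measured log2 0.34 ± 0.12 in that comparison (adjusted p = 0.11), and Sec16a, the scaffold of ER exit sites, measured 0.16 ± 0.10 (adjusted p = 0.47); neither passed.

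The remaining COPII genes were not called in any of the comparisons. Sar1b, whose loss in humans blocks chylomicron export from the gut, measured log2 -0.37 ± 0.13 in RYGB against BWm (adjusted p = 0.10), the lowest estimate of the 47, and is shown in full for that reason, after its values were seen. With only animals numbered above 60 it was called lower (log2 -0.56, adjusted p = 0.027), as it was with a block for animal number (log2 -0.52, adjusted p = 0.010). Sar1b measured 10.23 (lowest), 10.58 (median) and 10.75 (highest) on the 6 RYGB arrays, 10.73, 10.83, 11.08 and 10.86 on the 4 BWm arrays, and 10.79, 10.78, 10.44, 10.62 and 10.62 on the 5 Sham AL arrays, and the groups overlapped. Mia3 (TANGO1), which brings bulky cargo such as collagen to the coat, measured log2 0.36 ± 0.12 in BWm against Sham AL (adjusted p = 0.11) and -0.14 ± 0.11 in RYGB against BWm (adjusted p = 0.59). In RYGB against BWm, Sec23a was at log2 -0.01 ± 0.11, Sec24a at -0.20 ± 0.10, Sec24b at -0.09 ± 0.10 and Sar1a at 0.15 ± 0.12.

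**Figure D2:**
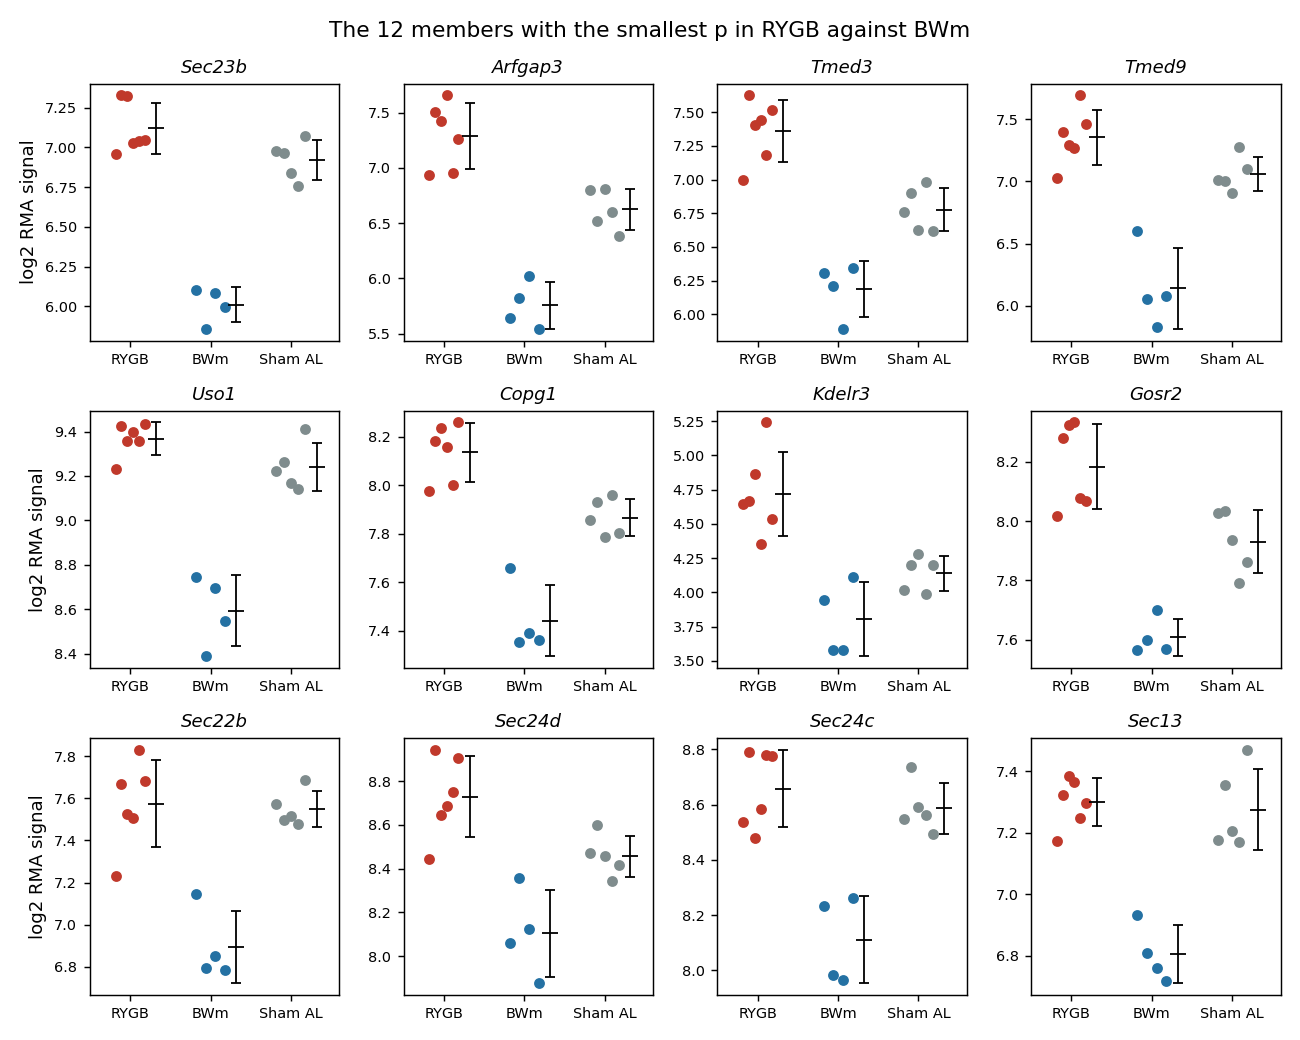
Log2 RMA signal of the 12 members with the smallest p in RYGB against BWm, with a point for each array and the group mean ± SD beside the points (n = 6 RYGB, 4 BWm, 5 Sham AL). In every panel the RYGB points lie above all BWm points.

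The p24 proteins are membrane proteins that ride in both coats, help to sort cargo such as GPI-anchored proteins and fall into subfamilies. Of the 7 measured, 4 were higher in RYGB than in BWm, 2 fell in BWm against Sham AL and 1 rose in RYGB against Sham AL. Tmed9 measured 7.03 (lowest), 7.34 (median) and 7.69 (highest) on the 6 RYGB arrays, 6.60, 6.06, 5.83 and 6.08 on the 4 BWm arrays, and 7.01, 7.005, 6.91, 7.27 and 7.10 on the 5 Sham AL arrays. The 4 BWm arrays were the lowest of 15, and replicate 1 was the highest of them. Tmed9 was 2.32-fold higher in RYGB than in BWm (log2 1.21 ± 0.14 SE, adjusted p = 8.7e-05) and fell in BWm against Sham AL (log2 -0.92 ± 0.15 SE, adjusted p = 0.0025). A second, dimmer Tmed9 cluster (mean level 3.41, against 6.93 for the one used) gave log2 0.24 and -0.27 in these comparisons, with the same signs and smaller sizes.

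Tmed3 was the p24 gene that separated all groups. It measured 6.99 (lowest), 7.42 (median) and 7.63 (highest) on the 6 RYGB arrays, 6.30, 6.21, 5.89 and 6.35 on the 4 BWm arrays, and 6.76, 6.90, 6.62, 6.98 and 6.62 on the 5 Sham AL arrays. The 3 groups did not overlap, although the lowest RYGB and the highest Sham AL value lay next to each other. It was 2.26-fold higher in RYGB than in BWm (log2 1.17 ± 0.13 SE, adjusted p = 5.6e-05) and rose in RYGB against Sham AL (log2 0.59 ± 0.12 SE, adjusted p = 0.022). This last call was lost with RYGB replicate 2, 4 or 6, or with Sham AL replicate 1, 3 or 5 left out (highest adjusted p = 0.061, log2 0.53 to 0.66). In BWm against Sham AL it fell (log2 -0.59 ± 0.14 SE, adjusted p = 0.025), and that call ended with BWm replicate 2 or 3, or with Sham AL replicate 2 or 4 left out (highest adjusted p = 0.11, log2 -0.64 to -0.49).

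Tmed10 and Tmed2, the p24 proteins best known for binding coat subunits, were higher in RYGB than in BWm by log2 0.44 ± 0.09 (adjusted p = 0.0042) and 0.39 ± 0.10 (adjusted p = 0.021). With the mean of each gene's clusters in place of the brightest they were not called, and the Tmed2 call also ended with BWm replicate 2, 3 or 4 left out (highest adjusted p = 0.072, log2 0.35 to 0.45). With the mean of clusters, 27 of the 47 members were called higher in RYGB than in BWm, against 30. Dimmer second clusters of the members Copz1 and Gbf1 gave log2 0.31 and 0.25 in this comparison. Tmed7 at log2 0.31 ± 0.11, Tmed4 at 0.01 ± 0.10 and Tmed5 at -0.20 ± 0.12 did not pass. For Tmed5 all 4 BWm arrays lay above all Sham AL arrays (log2 0.39 ± 0.12, adjusted p = 0.10), opposite in sign to Tmed3 and Tmed9.

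All 7 subunits of the COPI coat were higher in RYGB than in BWm, with log2 fold changes between 0.34 and 0.69. With only animals numbered above 60, Copg1 and Cope were the subunits still called. The coat is recruited to membranes as 1 complex of 7 subunits. Copg1, the gamma subunit that contacts ARF1, measured 7.97 (lowest), 8.17 (median) and 8.26 (highest) on the 6 RYGB arrays, 7.66, 7.35, 7.39 and 7.36 on the 4 BWm arrays, and 7.86, 7.93, 7.79, 7.96 and 7.80 on the 5 Sham AL arrays. The groups did not overlap, with RYGB above Sham AL and Sham AL above BWm. Copg1 was higher in RYGB than in BWm (log2 0.69 ± 0.10 SE, adjusted p = 0.00028) and fell in BWm against Sham AL (log2 -0.43 ± 0.10 SE, adjusted p = 0.029). In RYGB against Sham AL it was not called (log2 0.27 ± 0.09 SE, adjusted p = 0.19), and the call in BWm against Sham AL ended with BWm replicate 2, 3 or 4, or with Sham AL replicate 2 or 4 left out (highest adjusted p = 0.10, log2 -0.50 to -0.40).

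The other COPI subunits were called in RYGB against BWm with smaller sizes. Cope, the epsilon subunit, measured log2 0.53 ± 0.12 (adjusted p = 0.0095), and Arcn1, the delta subunit, 0.45 ± 0.10 (adjusted p = 0.011). With only animals numbered above 60, Arcn1 was not called (log2 0.34, adjusted p = 0.15). Copb2, the beta-prime subunit, measured log2 0.47 ± 0.11 and lost its call with BWm replicate 2 left out (highest adjusted p = 0.054, log2 0.39 to 0.51). Copz1 (zeta, log2 0.42 ± 0.10) lost it with BWm replicate 2 or 3 left out (highest adjusted p = 0.076, log2 0.38 to 0.45). The calls of the alpha and beta subunits were the least stable of the 7. That of Copa (log2 0.39 ± 0.11) ended with RYGB replicate 2, 3, 4 or 6, or with any BWm array left out (highest adjusted p = 0.10, log2 0.35 to 0.45), and that of Copb1 (log2 0.34 ± 0.10) ended with RYGB replicate 1, 2, 3, 4 or 5, BWm replicate 1, 2 or 4, or with Sham AL replicate 1 or 2 left out (highest adjusted p = 0.14, log2 0.28 to 0.40). With only animals numbered above 60, Copa measured log2 0.34, adjusted p = 0.19 and Copb1 log2 0.29, adjusted p = 0.26. Between RYGB and Sham AL 0 of 7 subunits passed (3 were higher and 0 lower at an unadjusted p under 0.05).

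ARF1 is switched on at the Golgi by GBF1 and switched off by the ARFGAP proteins, which lets the COPI coat come off. Arfgap3 had the largest fold change of all 47 members in RYGB against BWm and in RYGB against Sham AL. It measured 6.93 (lowest), 7.34 (median) and 7.66 (highest) on the 6 RYGB arrays, 5.64, 5.82, 6.02 and 5.54 on the 4 BWm arrays, and 6.80, 6.52, 6.81, 6.60 and 6.39 on the 5 Sham AL arrays. The 3 groups did not overlap. Arfgap3 was 2.89-fold higher in RYGB than in BWm (log2 1.53 ± 0.15 SE, adjusted p = 1.9e-05), rose 1.58-fold in RYGB against Sham AL (log2 0.66 ± 0.14 SE, adjusted p = 0.021) and fell in BWm against Sham AL (log2 -0.87 ± 0.15 SE, adjusted p = 0.0047). The call against Sham AL ended with RYGB replicate 2, 3 or 4, or with Sham AL replicate 2 or 5 left out (highest adjusted p = 0.072, log2 0.59 to 0.74).

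Gbf1 measured 8.08 (lowest), 8.26 (median) and 8.44 (highest) on the 6 RYGB arrays, 7.87, 7.86, 7.93 and 7.85 on the 4 BWm arrays, and 8.30, 8.45, 8.32, 8.20 and 8.16 on the 5 Sham AL arrays. BWm arrays lay below all others, and RYGB and Sham AL overlapped. It was higher in RYGB than in BWm (log2 0.38 ± 0.10 SE, adjusted p = 0.022) and fell in BWm against Sham AL (log2 -0.41 ± 0.10 SE, adjusted p = 0.033). The first call ended with RYGB replicate 2, or with BWm replicate 1, 2 or 4 left out (highest adjusted p = 0.060, log2 0.34 to 0.42), and the second with any BWm array, or with Sham AL replicate 1, 2 or 3 left out (highest adjusted p = 0.094, log2 -0.44 to -0.37). Arfgap1 (log2 0.44 ± 0.10) and Arfgap2 (log2 0.33 ± 0.10) were also higher in RYGB than in BWm. The Arfgap1 call ended with BWm replicate 2 left out (highest adjusted p = 0.050, log2 0.39 to 0.49) and the Arfgap2 call with RYGB replicate 2, 3, 4, 5 or 6, any BWm array, or with Sham AL replicate 2, 3 or 5 left out (highest adjusted p = 0.14, log2 0.30 to 0.36).

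Among the cargo receptors, 5 of 10 were higher in RYGB than in BWm (7 higher and 1 lower at an unadjusted p under 0.05). KDEL receptors return ER chaperones from the Golgi to the ER. Kdelr3 measured 4.35 (lowest), 4.65 (median) and 5.24 (highest) on the 6 RYGB arrays, 3.95, 3.58, 3.58 and 4.12 on the 4 BWm arrays, and 4.02, 4.20, 4.28, 3.99 and 4.20 on the 5 Sham AL arrays. RYGB lay above all arrays of the other groups, and BWm replicate 4 at 4.12 lay within the Sham AL range. Kdelr3 was higher in RYGB than in BWm (log2 0.91 ± 0.15 SE, adjusted p = 0.0011) and was not called in RYGB against Sham AL (log2 0.58 ± 0.14 SE, adjusted p = 0.054). In BWm it averaged 3.81, below the median of every array, and the deposited values do not show how far that lies above background. Kdelr2 was called in RYGB against BWm at log2 0.44 ± 0.13, a call that ended with RYGB replicate 1, 2, 5 or 6, any BWm array, or with Sham AL replicate 2 or 3 left out (highest adjusted p = 0.15, log2 0.39 to 0.49), and Kdelr1 at 0.16 ± 0.09 was not (adjusted p = 0.36).

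Lman1 and Mcfd2 form the receptor that carries clotting factors V and VIII out of the ER, and both were higher in RYGB than in BWm. Mcfd2 measured log2 0.58 ± 0.13 (adjusted p = 0.0095), with the value of BWm replicate 2 (7.52) above the lowest RYGB value (7.47, replicate 1). Lman1 measured log2 0.46 ± 0.11 and lost its call with BWm replicate 2 left out (highest adjusted p = 0.080, log2 0.39 to 0.51). Surf4, the receptor through which mouse liver exports lipoproteins, was higher in RYGB than in BWm (log2 0.47 ± 0.10 SE, adjusted p = 0.0087) and measured log2 0.36 ± 0.10 in RYGB against Sham AL (adjusted p = 0.080). With only animals numbered above 60, Surf4 was at log2 0.47, adjusted p = 0.053 in RYGB against BWm.

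The other cargo receptors did not pass in RYGB against BWm. Lman2, a lectin of the early secretory route, measured log2 0.41 ± 0.14 (adjusted p = 0.090), and the ER-Golgi cycling proteins Ergic1, Ergic2 and Ergic3 measured 0.32 ± 0.11, -0.05 ± 0.12 and -0.33 ± 0.12 (adjusted p = 0.099, 0.89 and 0.14). For Ergic3 all 4 BWm arrays lay above all Sham AL arrays (log2 0.35 ± 0.13, adjusted p = 0.16), and for Ergic1 the estimate ran the other way (log2 -0.42 ± 0.11, adjusted p = 0.058).

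Of the SNAREs, which fuse vesicles with their target, and the tethers and stacking proteins, which capture them and hold Golgi cisternae together, 5 of 6 were higher in RYGB than in BWm. Uso1 encodes p115, a tether of incoming vesicles. It measured 9.23 (lowest), 9.38 (median) and 9.44 (highest) on the 6 RYGB arrays, 8.74, 8.39, 8.70 and 8.55 on the 4 BWm arrays, and 9.22, 9.26, 9.17, 9.14 and 9.41 on the 5 Sham AL arrays. The 4 BWm arrays lay well below the rest, with a gap of log2 0.40 between the highest BWm and the lowest Sham AL value. Uso1 was 1.71-fold higher in RYGB than in BWm (log2 0.77 ± 0.10 SE, adjusted p = 0.00013) and fell in BWm against Sham AL (log2 -0.65 ± 0.10 SE, adjusted p = 0.002), with log2 0.13 ± 0.09 SE, adjusted p = 0.60 between RYGB and Sham AL.

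Sec22b, a SNARE of both directions of this traffic, measured 7.23 (lowest), 7.60 (median) and 7.83 (highest) on the 6 RYGB arrays, 7.15, 6.79, 6.85 and 6.78 on the 4 BWm arrays, and 7.57, 7.50, 7.52, 7.48 and 7.69 on the 5 Sham AL arrays. BWm lay below both other groups, which overlapped. It was higher in RYGB than in BWm (log2 0.68 ± 0.12 SE, adjusted p = 0.0012) and fell in BWm against Sham AL (log2 -0.66 ± 0.12 SE, adjusted p = 0.0055). Gosr2, a Golgi SNARE, measured 8.02 (lowest), 8.18 (median) and 8.33 (highest) on the 6 RYGB arrays, 7.57, 7.60, 7.70 and 7.57 on the 4 BWm arrays, and 8.03, 8.03, 7.93, 7.79 and 7.86 on the 5 Sham AL arrays. Its difference between RYGB and BWm (log2 0.58 ± 0.10 SE, adjusted p = 0.0012) passed, and that between BWm and Sham AL did not (log2 -0.32 ± 0.10 SE, adjusted p = 0.10), although the arrays of BWm all lay below those of Sham AL. Gorasp2, which links Golgi cisternae, was higher in RYGB than in BWm by log2 0.49 ± 0.10 (adjusted p = 0.0067). Bet1, a SNARE of ER-derived vesicles, measured log2 0.56 ± 0.13 and lost its call with BWm replicate 2 left out (highest adjusted p = 0.059, log2 0.49 to 0.63). Golga2 (GM130), the Golgi partner of p115, was not called (log2 0.12 ± 0.09, adjusted p = 0.53).

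**Figure D3:**
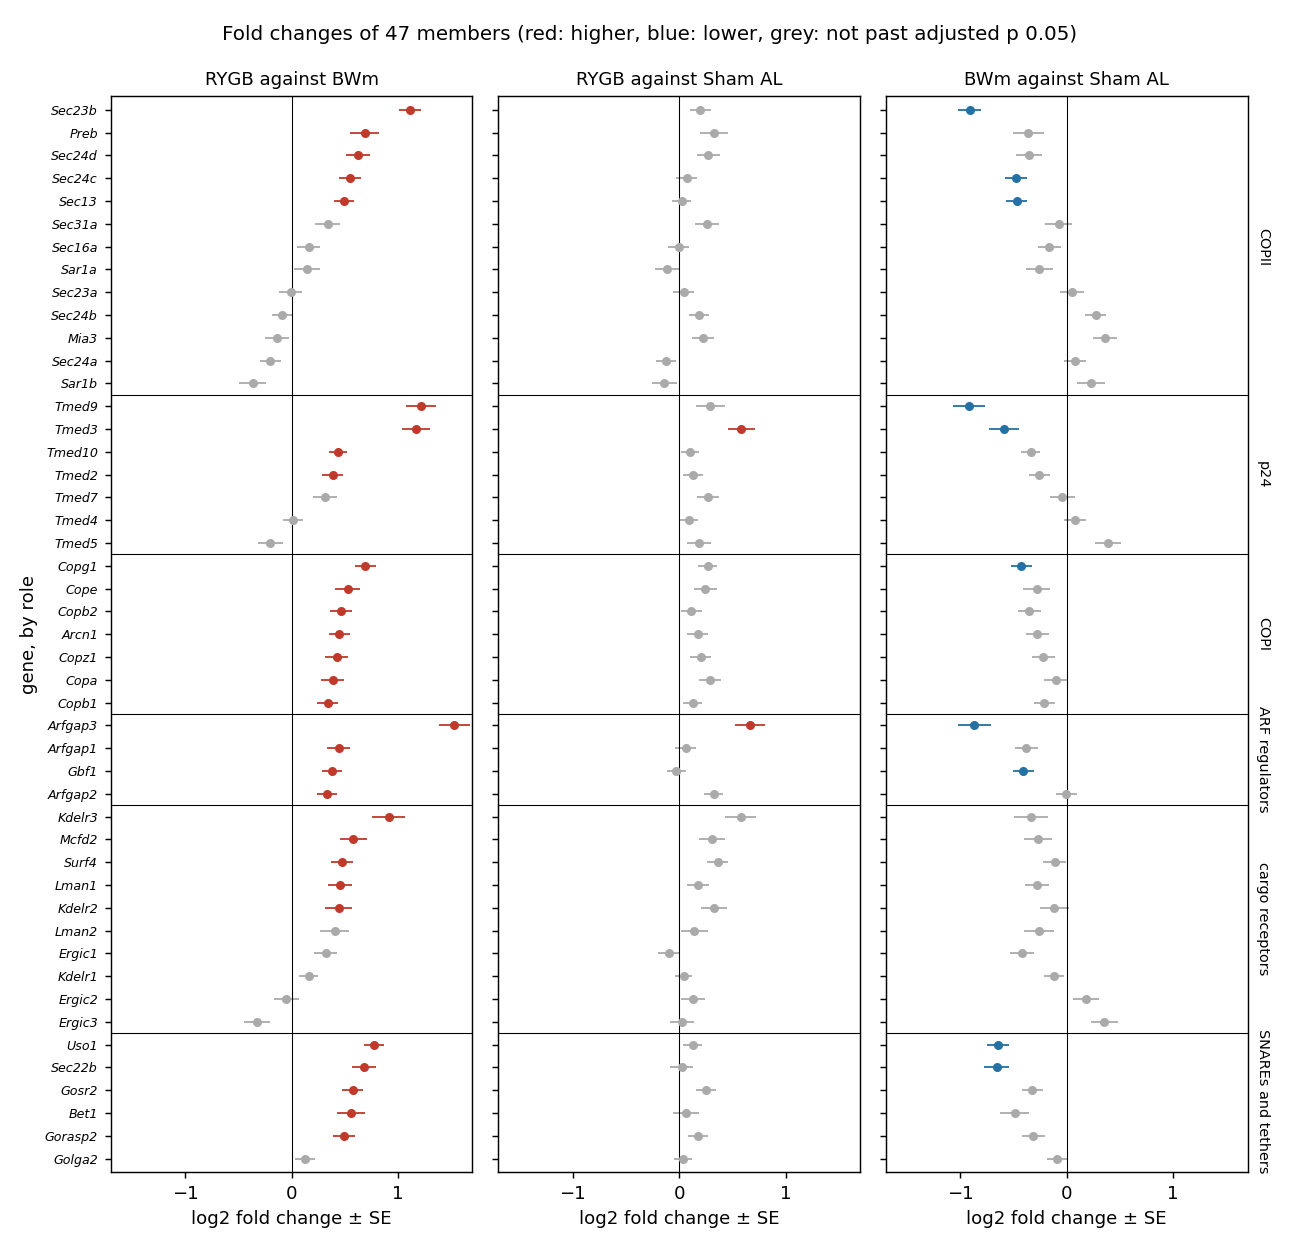
Log2 fold change ± SE of the 47 members, by role, in RYGB against BWm (left), RYGB against Sham AL (middle) and BWm against Sham AL (right); red is called higher, blue called lower and grey not called at an adjusted p of 0.05. The left panel holds 30 red points, the middle 2 and the right 10 blue points.

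Several members belong to families of paralogues, and the difference between paralogues on the same array is described here for the Sec23, Sec24, Sar1, Kdelr and Arfgap families. The families were picked after their values had been seen, so the differences are given without a test, and since they depend on each gene's probes they are compared between groups only. Sec23b minus Sec23a was -1.73 ± 0.17 in RYGB, -2.85 ± 0.23 in BWm and -1.89 ± 0.08 in Sham AL livers (log2, SD). Sec23a itself measured 8.70 (lowest), 8.80 (median) and 9.03 (highest) on the 6 RYGB arrays, 8.83, 9.05, 8.86 and 8.70 on the 4 BWm arrays, and 8.80, 8.82, 8.65, 8.72 and 9.05 on the 5 Sham AL arrays, with all groups overlapping.

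Within the SEC24 family, the differences across the 2 subclasses were lowest in BWm. Sec24d minus Sec24a was -1.02 ± 0.20 in RYGB, -1.85 ± 0.25 in BWm and -1.42 ± 0.10 in Sham AL livers (log2, SD). Sec24c minus Sec24b was 1.58 ± 0.07 in RYGB, 0.94 ± 0.28 in BWm and 1.69 ± 0.12 in Sham AL livers (log2, SD). The group means of these differences lay 0.83 and 0.63 higher (log2) in RYGB than in BWm. Within a subclass, Sec24d minus Sec24c was 0.07 ± 0.11 in RYGB, -0.01 ± 0.34 in BWm and -0.13 ± 0.06 in Sham AL livers (log2, SD). Sec24b minus Sec24a was -2.67 ± 0.11 in RYGB, -2.78 ± 0.07 in BWm and -2.98 ± 0.22 in Sham AL livers (log2, SD), so that its RYGB mean lay 0.31 above that of Sham AL and 0.11 above that of BWm. On their own, Sec24a measured 9.75 ± 0.10 (SD, n = 6) in RYGB, 9.95 ± 0.13 (SD, n = 4) in BWm and 9.87 ± 0.13 (SD, n = 5) in Sham AL livers. Sec24b measured 7.08 ± 0.10 (SD, n = 6) in RYGB, 7.17 ± 0.15 (SD, n = 4) in BWm and 6.90 ± 0.12 (SD, n = 5) in Sham AL livers.

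For the ARFGAP proteins, Arfgap3 minus Arfgap2 was -0.71 ± 0.28 in RYGB, -1.91 ± 0.27 in BWm and -1.05 ± 0.20 in Sham AL livers (log2, SD), and the mean was lowest in BWm. Arfgap2 minus Arfgap1 was 0.91 ± 0.16 in RYGB, 1.02 ± 0.08 in BWm and 0.65 ± 0.19 in Sham AL livers (log2, SD), with the lowest mean in Sham AL. Levels of Arfgap1 were 6.86 to 7.34 on RYGB, 6.58 to 6.74 on BWm and 6.85 to 7.25 on Sham AL arrays. Arfgap2 measured 7.87 to 8.14 on RYGB, 7.58 to 7.73 on BWm and 7.46 to 7.81 on Sham AL arrays. RYGB overlapped Sham AL for Arfgap1 and lay above it for Arfgap2.

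Among the KDEL receptors, Kdelr3 minus Kdelr1 was -1.64 ± 0.32 in RYGB, -2.39 ± 0.30 in BWm and -2.17 ± 0.04 in Sham AL livers (log2, SD), highest in RYGB. Kdelr1 itself ranged over 6.25 to 6.44 on RYGB, 6.11 to 6.25 on BWm and 6.17 to 6.42 on Sham AL arrays, and Kdelr2 over 10.10 to 10.57 on RYGB, 9.73 to 10.04 on BWm and 9.67 to 10.26 on Sham AL arrays. Sar1b minus Sar1a ran the other way between RYGB and BWm, at 2.05 ± 0.38 in RYGB, 2.57 ± 0.25 in BWm and 2.08 ± 0.26 in Sham AL livers (log2, SD).

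**Figure D4:**
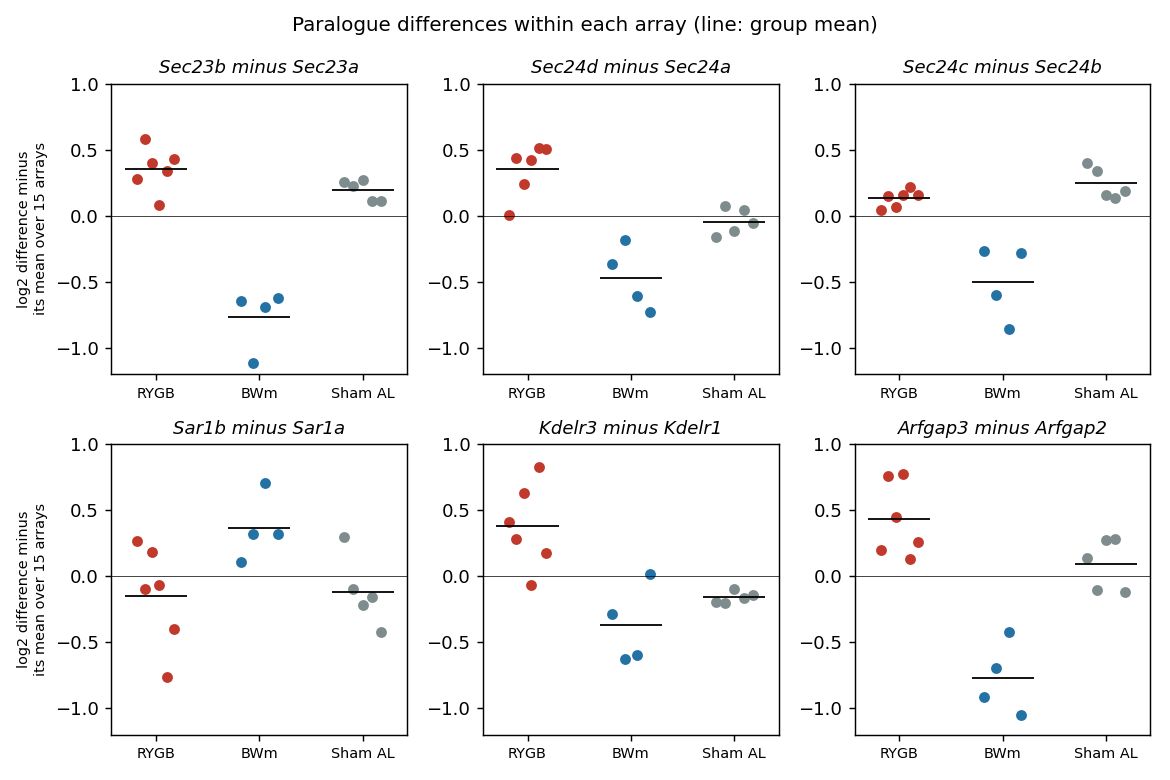
Difference between 2 paralogues on the same array, minus its mean over 15 arrays (log2), with a point for each array, a line at each group mean, and RYGB at the left, BWm in the middle and Sham AL at the right. The BWm points are the lowest for Sec23b minus Sec23a, Sec24d minus Sec24a, Sec24c minus Sec24b and Arfgap3 minus Arfgap2, and the highest group mean for Sar1b minus Sar1a is that of BWm.

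Neighbouring steps of the secretory route were described with lists of other genes. For comparison, 4.02% of all genes were called higher and 2.34% lower in RYGB against BWm. The shares were 1.53% higher and 1.3% lower in BWm against Sham AL, and 0.938% higher and 0.442% lower in RYGB against Sham AL. Among genes of ER entry (the SEC61 channel, the signal recognition particle and its receptor, signal peptidase and oligosaccharyltransferase), 17 of 29 were higher in RYGB than in BWm and 0 lower (23 higher and 0 lower at an unadjusted p under 0.05), with a median of log2 0.50. Ssr2, a subunit of the translocon-associated complex, measured log2 0.78 ± 0.10, Ddost, of oligosaccharyltransferase, 0.75 ± 0.10, and Sec61a1, the channel itself, 0.78 ± 0.10. In BWm against Sham AL 7 of 29 fell and 0 rose (16 lower and 0 higher at an unadjusted p under 0.05), among them Ssr1 at log2 -0.55 ± 0.12. Of the 29, 1 rose in RYGB against Sham AL, Ddost (log2 0.50 ± 0.09, adjusted p = 0.0072). At an unadjusted p under 0.05, 14 of the 29 were higher there and 0 lower, with a median of log2 0.24.

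A further 60 ER-Golgi genes outside the member list were measured. Of these, 12 were higher in RYGB than in BWm and 0 lower (18 and 0 at an unadjusted p under 0.05), and the median was log2 0.14, against 0.44 for the 47 members. Scfd1, a partner of the Golgi SNARE syntaxin, measured log2 0.99 ± 0.12 (adjusted p = 0.00013), Nbas, of a tether that receives COPI vesicles at the ER, 0.80 ± 0.13 (adjusted p = 0.00087), and Yipf5, a Golgi membrane protein, 0.67 ± 0.11 (adjusted p = 0.0012). Scfd1, the small GTPase gene Rab1a and Sec22a were the 3 of 60 that fell in BWm against Sham AL (log2 -0.95 ± 0.13, -0.36 ± 0.09 and -0.49 ± 0.13). In RYGB against Sham AL 0 of 60 passed (7 higher and 0 lower at an unadjusted p under 0.05).

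Past the Golgi, the list of coats, golgins and sorting proteins of the exit side had 3 of 30 genes higher in RYGB than in BWm and 0 lower (7 higher and 1 lower at an unadjusted p under 0.05), with a median of log2 0.14. They were the clathrin heavy chain gene Cltc (log2 0.42 ± 0.09) and the golgin genes Gcc2 (0.47 ± 0.11) and Golga4 (0.46 ± 0.12). In BWm against Sham AL 0 of 30 passed (1 higher and 4 lower at an unadjusted p under 0.05), with a median of log2 0.01. In RYGB against Sham AL 0 of 30 passed (2 higher and 0 lower at an unadjusted p under 0.05). The median there was log2 0.15, and 26 of the 30 estimates were above 0. Whether these lists differ from each other was not tested.

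Regulators known to switch on secretory genes were higher in RYGB than in BWm in 6 of 10 cases and lower in 0 (7 and 0 at an unadjusted p under 0.05). Creb3l2, a membrane-bound factor that induces Sec23a in mouse cartilage, measured log2 0.76 ± 0.14 (adjusted p = 0.0026), with 7.83, 8.12, 7.93, 8.37, 7.74 and 7.95 on RYGB arrays and 7.36, 6.94, 7.29 and 7.35 on BWm arrays, which did not overlap. Xbp1, a factor of the unfolded protein response, measured log2 0.62 ± 0.12 (adjusted p = 0.0028), and Atf6, which is cut at the Golgi to enter the nucleus, 0.52 ± 0.12 (adjusted p = 0.011). In BWm against Sham AL 0 of 10 passed (0 higher and 4 lower at an unadjusted p under 0.05), and in RYGB against Sham AL 1 did, Mbtps2, a protease that cuts ATF6 (log2 0.56 ± 0.10, adjusted p = 0.009). At an unadjusted p under 0.05, 5 of the 10 were higher in RYGB than in Sham AL and 0 lower, with a median of log2 0.21.

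**Figure D5:**
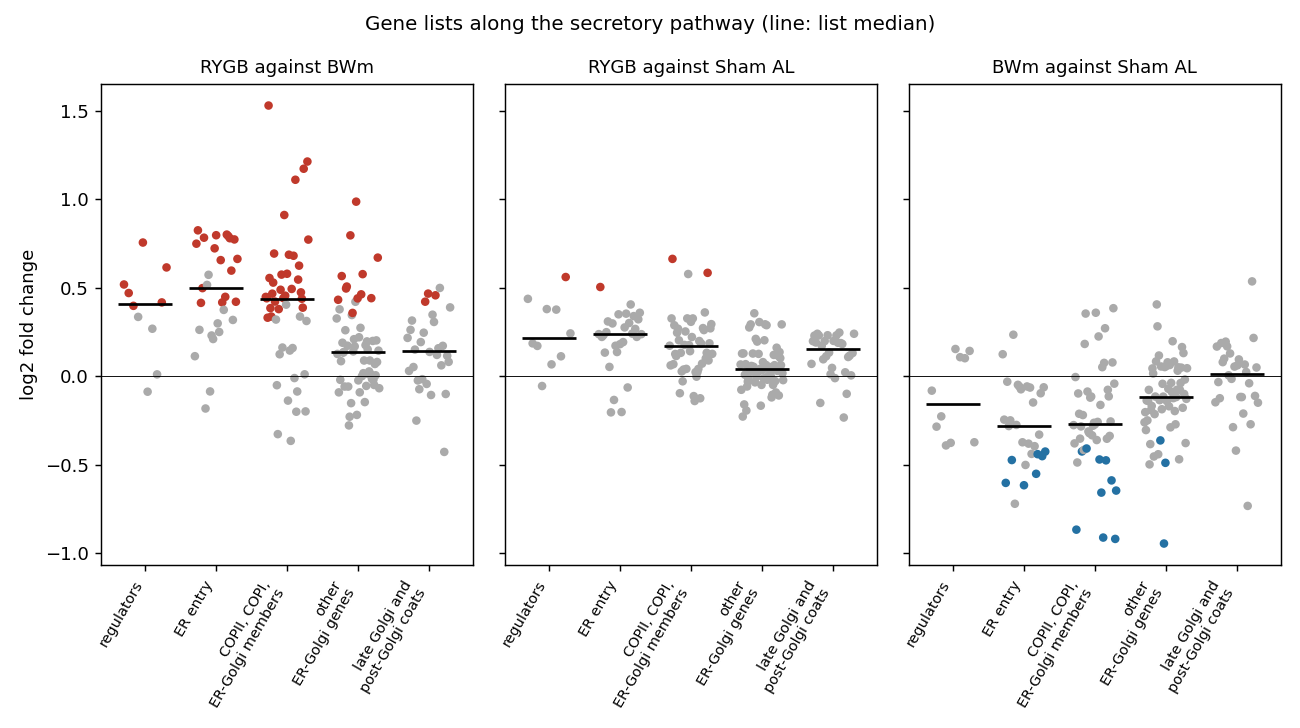
Log2 fold changes of single genes in lists along the secretory route (columns), with a line at each list's median, in RYGB against BWm (left), RYGB against Sham AL (middle) and BWm against Sham AL (right); red is called higher and blue called lower at an adjusted p of 0.05. In RYGB against BWm the medians were 0.50 for ER entry, 0.44 for the members, 0.14 for other ER-Golgi genes and 0.14 past the Golgi.

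Markers of the cell types in a piece of liver were measured beside these genes, since fewer cells of a type and less RNA per cell cannot be told apart in whole tissue. Hepatocyte markers had 0 of 11 called by limma in RYGB against BWm (1 higher and 1 lower at an unadjusted p under 0.05), with a median of log2 -0.04, and a mean per array relative to all arrays of -0.03 to 0.02 on RYGB, -0.01 to 0.05 on BWm and -0.11 to 0.05 on Sham AL arrays. Plasma cells and exocrine pancreas, cell types rich in secretory machinery, had 0 of 8 and 0 of 7 markers called (1 and 0 higher and 0 lower at an unadjusted p under 0.05), with medians of log2 0.06 and -0.05. Their mean levels were 4.52 to 4.94 and 3.28 to 3.66 on RYGB and 4.45 to 4.73 and 3.31 to 3.80 on BWm arrays.

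Kupffer cell markers, 0 of 10 of which were called in RYGB against BWm (5 higher at an unadjusted p under 0.05), had a median of log2 0.30, and neutrophil markers (0 of 10 called, 4 higher at an unadjusted p under 0.05) one of 0.41. Relative to all arrays their means were -0.06 to 0.43 and -0.17 to 0.74 on RYGB, -0.4 to 0.29 and -0.33 to 0.07 on BWm, and -0.43 to 0.14 and -0.31 to 0.06 on Sham AL arrays. Cholangiocyte, sinusoidal endothelial and stellate cell markers had 0 of 7, 0 of 10 and 0 of 10 called (at an unadjusted p under 0.05, 0, 3 lower, and 2 higher with 1 lower), with medians of log2 -0.01, -0.17 and 0.14. In RYGB against Sham AL the Kupffer cell markers had 10 of 10 estimates above 0 and 6 higher at an unadjusted p under 0.05. Of all 22180 genes, 49.2% had estimates above 0 there and 1700 were higher at that unadjusted p. The median of the Kupffer cell markers was log2 0.41, against 0.17 for the 47 transport genes. Of these 10 markers, Adgre1 rose in RYGB against Sham AL (log2 0.64 ± 0.14, adjusted p = 0.025). Of the 8 brown fat markers, 2 were called lower in RYGB than in BWm and 0 higher, with a median of log2 -0.11. They were Elovl3 and Ppargc1a, genes that liver also expresses, while 4 of the 8 estimates were above 0. The part of these cell types in the differences of the transport genes was not tested.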

How the data were processed

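Liver RNA of 15 mice was hybridised to 1 array each. The deposited values are log2 signals that the authors made with RMA (Affymetrix Expression Console 1.4.1.46, per the submitters' processing notes); background correction, normalization and summarization were thus done before deposit. The table held 41345 transcript clusters, of which 23521 had 1 gene symbol in the platform annotation, 1814 several and 16010 none. Each gene was represented by its cluster with the highest mean (1082 genes had more than 1), giving 22180 genes, all of them tested without a level filter.

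Groups came from the sample labels. limma 3.58.1 in R 4.3.3 fitted 1 mean per group over all 15 arrays, and 2-sided p-values were adjusted by Benjamini-Hochberg over all 22180 genes (called: adjusted p under 0.05; ± is the SE of a log2 fold change or, where stated, the SD). The procedure was tested on simulated data. Each array was labelled as a biological replicate of its own mouse. The 48 members, the other lists and the paralogue families were chosen with earlier results of these data known. Every member could be named; per-array values were given for up to 12 called members with the smallest p in a comparison, values or ranges for their paralogues in the Sec23, Sec24, Kdelr and Arfgap families, and per-array values for Sar1b, chosen after they were seen, and 3 genes per further list were named by smallest p. Alternatives covered a level filter, 2 normalizations, cluster choice, prior, array weights, blocks, the methods' one-way analysis of variance (p under 0.05 and at least 1.5-fold) and leaving out each array. Promoters were RefSeq windows of GRCm38.p6, matched by gene. Analysis of proteins was not made.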

Additional observations from a re-analysis of the deposited data

Results flagged for a closer look

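Single arrays far from the rest of their group were searched for in 174 groups of values (141 of them of member genes) by Dixon's criterion, which chance alone meets in about 1 in 20 groups, and 9 values were found, 6 of them of member genes. Sec31a measured 10.23 in Sham AL replicate 1, against 9.91 to 9.999 on the other Sham AL arrays. Mia3 measured 8.46 in RYGB replicate 3, against 8.72 to 8.85. RYGB replicate 5 was low for Tmed7 (9.52, against 9.97 to 10.10) and for Copb2 (8.92, against 9.12 to 9.21). BWm replicate 1 was high for Tmed2 (8.59, against 8.33 to 8.34) and for Copg1 (7.66, against 7.35 to 7.39).

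The other 3 values were means of marker lists relative to all arrays. Sham AL replicate 4 had a mean of 5.26 for adrenal cortex markers, against -0.42 to -0.22 on the other Sham AL arrays. Its mean for brown fat markers was 3.29, against -0.11 to 0.20. RYGB replicate 6 had a mean of -0.55 for sinusoidal endothelial markers, against -0.06 to 0.13 on the other RYGB arrays.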

How the results depend on the processing

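Across the alternatives no member changed the sign of a called fold change. The count of members called in RYGB against BWm (30) was 19 with a replicate block, 10 with the methods' analysis of variance at its own thresholds, and 19 to 30 when single arrays were left out. In BWm against Sham AL (10) it was 17 among genes above the median level, 6 with a replicate block, 4 with the analysis of variance after adjustment, 6 at its thresholds, and 6 to 11 with single arrays left out. In RYGB against Sham AL (2) it was 4 among genes above the median level, 1 with a replicate block, 0 with only animals numbered above 60 (chosen after seeing the data), 0 with the analysis of variance after adjustment, and 0 to 3 with single arrays left out. A level filter tests fewer genes and leaving out arrays uses fewer samples; for the other settings the cause was not tested. Of the called members, 19 of 30, 6 of 10 and 0 of 2 kept the call in every fit without 1 array, and 14 of 30, 3 of 10 and 0 of 2 in every alternative other than the analysis of variance at its own thresholds (Kdelr3 could not be tested above the median level). The labels number the replicates and do not state whether equal numbers pair mice. Deviations of the 13 same-numbered pairs correlated between -0.17 and 0.19, and 4 were above 0.1, which cannot settle whether mice were paired. Other normalizations moved the median of all genes by less than 0.1. Signal over background could not be assessed from the deposited values, which limits dim genes such as Kdelr3, and 4 to 6 mice per group limit small differences.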
